A study of Homo sapiens with 5 samples.

Results

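Nuclear receptors are transcription factors, most of which bind a small lipid-soluble hormone, vitamin or metabolite and act on DNA as single molecules or pairs. The set described here is 40 nuclear receptor genes, taken from the family by gene name and not by a measured value, of 20007 protein-coding genes in GENCODE release 44. The data were ATAC-seq hotspots, regions of local read enrichment that mark open chromatin, and each hotspot carried a score from the peak caller. A hotspot was given to a gene where it lay within 1000 bp of one of the gene's transcription start sites (TSSs), called a promoter hotspot here, or where the nearest protein-coding TSS within 100 kb of its midpoint belonged to the gene, called an assigned hotspot. The 40 genes held 417 of the 181723 hotspots by the assignment. All cells were MCF10A, an immortalized, non-tumorigenic human mammary epithelial line, grown in medium with insulin (10 µg/ml), the glucocorticoid hydrocortisone (0.5 µg/ml), cholera toxin (100 ng/ml), EGF (20 ng/ml) and 5% horse serum, with no other group to compare. Libraries of 5 replicates, read as pairs of 75 bases, were merged before hotspots were called, so no value below has a replicate error, the depth is unknown and no test between samples could be made.

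A nuclear receptor typically joins a DNA-binding domain of zinc fingers to a ligand-binding domain that recruits coactivators or corepressors. Many receptors read the hexamer AGGTCA or close variants of it. Retinoid, thyroid hormone and vitamin D receptors bind such hexamers in tandem with a retinoid X receptor (RXR) as partner, and the spacing between the hexamers sets which pair binds. Steroid receptors bind inverted repeats as homodimers, and the estrogen-related and NR5A receptors bind a single hexamer with added bases in front. In breast epithelium the estrogen and progesterone receptors are the best known members, as they define the hormone-responsive luminal cells. Serum carries retinoids, thyroid hormone and steroids, and hydrocortisone is a ligand of the glucocorticoid and mineralocorticoid receptors.

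A promoter hotspot was found at 36 of the 40 nuclear receptor genes (90%, 95% Wilson interval 76.9% to 96.0%), where 77.2% of all protein-coding genes had one. Intervals cover counting error only. The hotspots at these promoters were on the whole of modest score. The highest promoter score of a member had a median of 14.4 (n = 36, quartiles 6.83 and 26.8), beside a median of 20.4 (quartiles 10.7 and 30.7) over the 15455 genes with a promoter hotspot. Scores over the whole list ran from 4.36 to 912 with a median of 5.81. A promoter hotspot with a score above 20 was present at 13 members, where 39.5% of all genes had one, and at 9 of the 36 members the highest promoter score was below 6. A score was not divided by depth or width, and a low score cannot be told apart from an opening present in few cells.

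Of 15 sets of closely related paralogs among them, made by gene name, 6 held genes on both sides of a score of 10. In 4 sets every gene was above it and in 5 none was, with a gene lacking a promoter hotspot counted as not above. Among all members 22 were above 10, and the lower quartile of all genes with a promoter hotspot lay just above 10. Noncoding start sites were included, and whether paralogs differed more than other members was not tested.

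**Figure D1:**
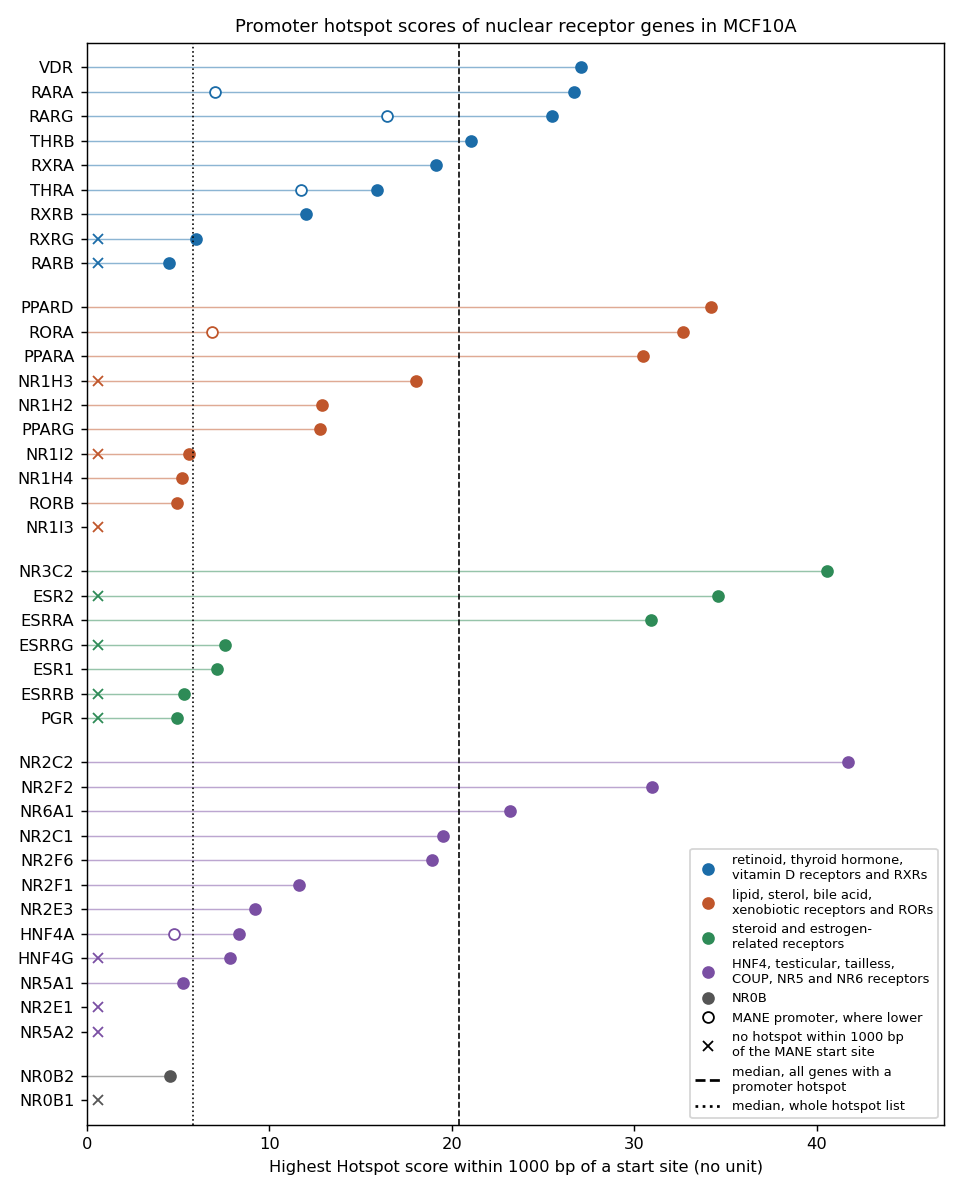
Highest promoter score of each of the 40 nuclear receptor genes (filled circles, Hotspot score without unit), grouped by role, with the score at the MANE promoter as an open circle where it was lower and a cross where the MANE start site had no hotspot within 1000 bp. NR2C2 and NR3C2 were highest at 41.7 and 40.6, the dashed line is the median of all genes with a promoter hotspot (20.4) and the dotted line the median of the whole list (5.81).

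Among the receptors for retinoic acid, thyroid hormone and vitamin D and their RXR partners, all 9 genes had a promoter hotspot, with a median score of 19.1. VDR, the receptor of the active form of vitamin D, was highest in the group with 27.1. The retinoic acid receptors RARA and RARG followed with 26.7 and 25.5, whereas RARB, itself a retinoid-responsive gene, reached 4.48. That last value came from a single hotspot of 149 bp, 522 bp from the start site of a noncoding transcript, and 89.0% of its 32-base words also occurred elsewhere in hg38. None of the 4 RARB promoters with coding transcripts had a hotspot within 1000 bp. RARA and RARG were thus open at coding promoters where RARB was not.

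The thyroid hormone receptor genes THRB and THRA had scores of 21.0 and 15.9. RXRA, which encodes a partner of the receptors above, had 19.1 at its MANE promoter, the promoter of the transcript that GENCODE marks as representative. RXRB had 12.0, but its hotspot also lay at the start site of SLC39A7, a zinc transporter gene on the opposite strand, and was nearer to that gene. No hotspot was assigned to RXRB. RXRG had 5.99 at the start of a noncoding transcript only, and it lost its promoter hotspot when coding start sites alone were counted, as RARB did.

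Among the sensors of lipids, sterols, bile acids and xenobiotics and the RORs, 9 of 10 genes had a promoter hotspot, with a median score of 12.9. The fatty acid sensors PPARD and PPARA had 34.2 and 30.5, and PPARG, the regulator of adipocyte differentiation, had 12.8. All 3 PPAR genes were open at their MANE promoters. RORA reached 32.7 and its paralog RORB 4.93. The liver X receptors, which sense oxysterols, were of middle score, NR1H3 with 18.1 and NR1H2 with 12.9. The NR1H3 value came from a hotspot 816 bp from the start of a noncoding transcript that also lay at a start site of MADD, the next gene. With coding start sites alone NR1H3 had 16.8.

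The remaining genes of the group, best known from liver and gut, had low scores or none. The bile acid receptor NR1H4 had 5.24. The xenobiotic receptor NR1I2 had 5.61 at a noncoding start only, 576 bp away, and none within 500 bp. The other xenobiotic receptor, NR1I3, had no promoter hotspot, and its nearest hotspot lay 3480 bp from a start site.

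Among the steroid and estrogen-related receptors, all 7 genes had a promoter hotspot, but the scores fell into a high set of 3 and a low set of 4. NR3C2, the mineralocorticoid receptor, had 40.6. ESR2, the second estrogen receptor, had 34.6, at a promoter 43.7 kb upstream of its MANE promoter, which had no hotspot. ESRRA, an orphan receptor tied to mitochondrial gene programs, had 30.9, from a hotspot of 2162 bp that also lay at a start site of the neighbouring CATSPERZ. The low set was ESRRG with 7.58, ESR1 with 7.12, ESRRB with 5.32 and PGR with 4.93. The genes of the hormone-responsive luminal program, ESR1 and PGR, were both in that low set. ESR1 was open at its MANE promoter, while the MANE promoter of PGR had no hotspot and its value came from a start site 1.98 kb further along the gene.

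Among the HNF4, testicular, tailless, COUP, NR5 and NR6 receptors, 10 of 12 genes had a promoter hotspot, with a median score of 15.3. NR2C2, one of the testicular receptors, had 41.7, the highest promoter score of all 40 members and above that of 92.2% of genes with a promoter hotspot. Its paralog NR2C1 had 19.5. The COUP transcription factor genes NR2F2 and NR2F1, which act in organ development, had 31.0 and 11.6, and the related NR2F6 had 18.9. NR6A1, known from germ cells and early embryos, had 23.2.

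The other genes of the group had lower scores or no promoter hotspot. NR2E3, a photoreceptor factor, had 9.22, and the hepatic and intestinal regulators HNF4A and HNF4G had 8.35 and 7.87. NR5A1, the steroidogenic factor of adrenal gland and gonads, had 5.25. NR2E1 (tailless), a factor of neural stem cells, and NR5A2, a liver and pancreas receptor, had no promoter hotspot, with the nearest hotspot at 6489 and 3630 bp.

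The NR0B genes encode receptors without the usual DNA-binding domain. NR0B2, the small heterodimer partner, had 4.56, and NR0B1, an adrenal and gonadal repressor on the X chromosome, had no promoter hotspot, with the nearest at 5138 bp.

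Many members have several promoters, and the highest score was not always at the MANE promoter. Start sites of a gene less than 1000 bp from the next were joined, which gave 162 promoters over the 40 genes, 64 of them with a hotspot within 1000 bp. Of 37 members with more than 1 promoter, 31 had some open and some not, and 3 had every one open. A hotspot near neighbouring promoters, as at NR2F1 and ESR1, counted for each of them. Hotspots in repeated sequence, such as those at noncoding promoters of RARB and NR3C2, were counted too. The joining was not run over all genes, so whether these counts are particular to the members was not tested. The MANE promoter was open at 27 of 40 members (67.5%, 52.0% to 79.9%), beside 13510 of 19056 genes with a MANE start site (70.9%). The 90% given above for any start site thus stands on promoters other than the MANE one at 9 members.

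RORA showed the widest distance between promoters of unlike score. Its MANE promoter had 6.86 and a promoter 637 kb further along the gene had 32.7. ESR2 had no hotspot at the MANE promoter and 34.6 at a promoter 43.7 kb upstream of it. At RARA the MANE promoter had 7.0, a promoter 9.10 kb further along had 26.7 and 2 more at 32.2 and 36.1 kb had 9.48 and 9.66. RARG was open at both coding promoters, with 16.5 at the MANE promoter and 25.5 at one 12.1 kb further along. All of these differences are between hotspots of 1 pooled list and were not tested.

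Other members had a closed MANE promoter and an open one elsewhere. The MANE promoter of HNF4G was without a hotspot and an upstream one 132 kb away had 7.87. ESRRG was closed at the MANE promoter and open with 7.58 at a promoter 366 kb upstream. ESRRB was closed there too, with 4.61 at a promoter 65.4 kb upstream and 5.32 at a noncoding one 124 kb downstream. The open promoters of all 3 genes thus lay far from the MANE promoter and were of low score. NR1H3 had 16.8 and 18.1 at promoters on either side of its closed MANE promoter. RXRG, NR1I2 and RARB had their single open promoter, of noncoding transcripts only, 20.2, 29.0 and 33.3 kb downstream.

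A further set had several open promoters of unequal score. VDR had 27.1 at the MANE promoter and 6.13 at one 38.1 kb upstream. PPARG, which had the most promoters of any member, 13, had 12.8 at the MANE promoter and 4.37 and 4.89 at those 64.1 and 118 kb further along. The other 10 PPARG promoters had no hotspot. HNF4A is known to use a pair of promoters in different tissues, and it had 4.80 at the MANE promoter and 8.35 at the other, 45.5 kb downstream. THRA had 11.7 at the MANE promoter and 15.9 at one 10.2 kb further along. NR1H2 had 12.9 at the MANE promoter and 8.29 at one 17.9 kb upstream. RXRA was open at 4 of its 5 promoters. It had 19.1 at the MANE promoter and 11.9, 12.1 and 4.46 at those 45.5, 52.8 and 59.7 kb further along.

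At a last set of members the MANE promoter held the highest score. NR2C2 had 41.7 there and 5.77 and 4.6 at promoters 84.8 and 86.7 kb further along. NR3C2 had 40.6 there, 6.82 at a promoter 2.47 kb upstream and 13.1 at a noncoding one 287 kb downstream. Of the 32-base words of the NR3C2 hotspot with 13.1, 100% also occurred elsewhere in the genome, with a median of 4365 copies a word. PPARA had 30.5 there and 4.37 and 5.10 at promoters 1.36 and 20.8 kb downstream. The 11.6 of NR2F1 came from 1 hotspot that lay within 1000 bp of both its MANE promoter and one 1.80 kb further along, and its other promoters, 3.88 and 8.75 kb along, had no hotspot. ESR1 was alike, with 7.12 from 1 hotspot at the MANE promoter and one 1.91 kb further along and none at its 6 others. NR2E3 had 9.22 there and 6.23 at one 17.9 kb upstream. The MANE promoter was the only open one at NR2C1, of 8, at THRB, of 4, at RXRB, of 3, and at ESRRA, NR1H4, NR5A1, NR6A1 and RORB, of 2 each.

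**Figure D2:**
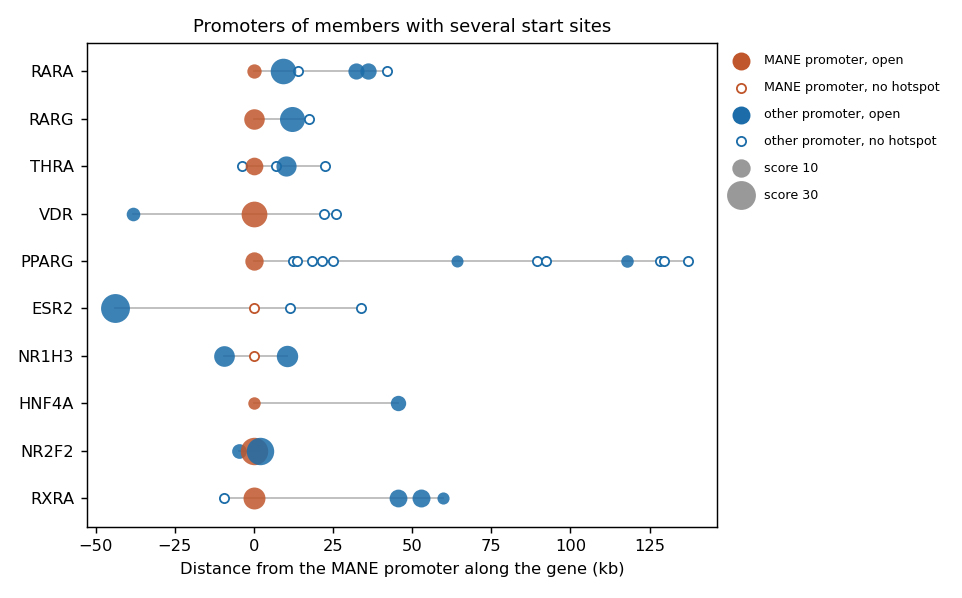
Promoters of 10 nuclear receptor genes by distance from the MANE promoter along the gene (kb), filled where a hotspot lay within 1000 bp and sized by its score, hollow where none did, with the MANE promoter in orange and others in blue. The MANE promoters of ESR2 and NR1H3 were hollow while other promoters of the same genes had scores of 34.6 and 18.1.

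Members differed in the CpG content of their promoters. Most nuclear receptor genes had a CpG-rich promoter, with an observed over expected CpG ratio of at least 0.6 in the 500 bp on either side of the richest start site in 31 of 40. A promoter hotspot was present at 28 of these 31 (90.3%), beside 90.8% of all genes at or above that ratio, and at 8 of the 9 below that ratio, where 43.7% of all genes below it had one. Those 8 were genes of low or middle score, among them NR0B2 with a ratio of 0.225, NR1I2 with 0.259, NR1H4 with 0.266 and NR5A1 with 0.334. These named genes and ESRRB lost their promoter hotspot when only hotspots above the median score were kept. The 43.7% was not counted again at that setting. The richest start site need not be the one with the hotspot, and NR1I2 had its hotspot at a noncoding start only. NR1I3, with 0.263, was the CpG-poor member without a promoter hotspot. The other members without a promoter hotspot, NR2E1, NR5A2 and NR0B1, had ratios of 0.728, 0.847 and 0.832, so CpG-rich sequence alone did not go with a hotspot there. Across the 36 members with a promoter hotspot, score and CpG ratio had a Spearman rho of 0.589, and across the 15455 genes 0.368. Genes are not independent replicates and both values are descriptions.

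RefSeq promoters (250 bases before to 50 after a start site, build GRCh38.p14) were on hand for 36 members. A hotspot overlapped 20 of these 36 stretches and 63.4% of those of 15345 protein-coding genes. The stretch was not always at the MANE promoter, and for ESR1 it lay at a closed promoter 151 kb upstream of it. The stretches without a hotspot thus included those of members with an open MANE promoter, such as ESR1, RORA, NR1H4 and PPARG. The GC box GGGCGG, a site of SP and KLF factors, was in 14 of the 20 overlapped member promoters and in 5 of the other 16, searched on both strands. Over all genes these shares were 73.4% and 34.7%. The nuclear receptor hexamer, AGGTCA or GGGTCA on either strand, stood in 11 of the 36 member promoters and 23.7% of all promoters. It was in 2 of the 20 overlapped member promoters, those of NR3C2 and RARA, and in 9 of the other 16, where all genes had 21.4% and 27.6%. A match is a match of letters only. TATAAA was in 3 of the 36 member promoters, NR0B1, NR5A2 and ESRRB, none of them overlapped, and in 9.63% of all promoters.

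The promoter of NR2C2, the member of highest score, is shown with its GC boxes in capitals, on the strand of the gene. It lay at chr3:14947333-14947632 on the forward strand, held 48 CpG dinucleotides and was 75.3% G or C.
NR2C2: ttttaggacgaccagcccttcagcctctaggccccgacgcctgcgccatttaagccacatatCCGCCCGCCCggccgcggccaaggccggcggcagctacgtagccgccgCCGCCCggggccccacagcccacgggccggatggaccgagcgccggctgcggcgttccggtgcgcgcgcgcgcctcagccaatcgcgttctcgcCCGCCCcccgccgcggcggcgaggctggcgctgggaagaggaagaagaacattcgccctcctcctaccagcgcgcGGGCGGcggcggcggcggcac

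The promoters of NR3C2 and RARA are shown because they are the overlapped ones with a nuclear receptor hexamer, in capitals. The NR3C2 stretch was chr4:148442365-148442664 on the reverse strand and the RARA stretch chr17:40308930-40309229 on the forward strand. Both hexamers of NR3C2 and the second of RARA read TGACCC, the reverse complement of GGGTCA, and the first of RARA reads AGGTCA.
NR3C2: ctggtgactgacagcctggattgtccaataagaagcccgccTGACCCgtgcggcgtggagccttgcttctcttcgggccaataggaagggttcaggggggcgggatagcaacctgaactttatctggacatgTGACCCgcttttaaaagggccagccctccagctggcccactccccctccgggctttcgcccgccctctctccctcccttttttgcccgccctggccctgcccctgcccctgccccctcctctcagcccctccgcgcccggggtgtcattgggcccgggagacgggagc
RARA: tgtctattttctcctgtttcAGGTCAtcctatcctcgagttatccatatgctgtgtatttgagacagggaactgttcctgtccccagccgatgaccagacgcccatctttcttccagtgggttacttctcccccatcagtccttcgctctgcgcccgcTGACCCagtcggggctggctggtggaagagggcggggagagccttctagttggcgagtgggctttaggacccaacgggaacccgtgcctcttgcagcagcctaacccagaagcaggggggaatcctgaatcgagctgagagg

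The promoters of NR1I3 and NR0B1 had no hotspot within 1000 bp and are shown for contrast, again with the hexamer in capitals. NR1I3 (chr1:161238154-161238453, reverse strand) held 3 CpG dinucleotides and NR0B1 (chrX:30309341-30309640, reverse strand) held 28.
NR1I3: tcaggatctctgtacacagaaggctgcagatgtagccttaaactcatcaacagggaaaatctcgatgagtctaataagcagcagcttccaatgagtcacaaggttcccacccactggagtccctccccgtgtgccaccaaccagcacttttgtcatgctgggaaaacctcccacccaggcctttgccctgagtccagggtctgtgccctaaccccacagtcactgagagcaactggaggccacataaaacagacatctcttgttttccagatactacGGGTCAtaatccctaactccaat
NR0B1: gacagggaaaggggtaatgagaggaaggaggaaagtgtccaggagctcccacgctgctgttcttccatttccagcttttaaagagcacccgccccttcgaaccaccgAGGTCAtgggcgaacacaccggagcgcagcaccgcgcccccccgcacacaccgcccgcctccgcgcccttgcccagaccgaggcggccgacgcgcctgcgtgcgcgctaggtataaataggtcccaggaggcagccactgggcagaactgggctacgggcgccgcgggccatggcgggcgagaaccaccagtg

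The number of assigned hotspots, those at promoters included, differed widely between members. A member had a median of 7 (quartiles 4 and 14), and the median over all genes was 5 (quartiles 2 and 9). ESRRB had 38, RXRA 33, THRB 32, ESR1 22 and RARB 21, and these 5 genes held 35.0% of the 417. PPARA had 19, RORA 18 and NR2E3 and NR2F2 17 each. In the NR0B group NR0B1 had 4 and NR0B2 3. RXRB had none, and NR1H3 and NR1I3 had 1 each. With the hotspots at promoters left out, ESRRB had 36, THRB 31, RXRA 27, ESR1 21 and RARB 20, so that THRB stood ahead of RXRA, and NR1H3 had none. ESRRB and RARB, with low promoter scores, were thus among the members with the most hotspots around them.

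Much of this order followed the room a gene had. The territory of a gene is the sequence for which its start sites are the nearest within 100 kb, with a median of 106 kb for members and 55.5 kb for all genes. Assigned hotspots rose with territory with a Spearman rho of 0.781 over the 40 members and 0.775 over 19981 genes. Per 100 kb of summed territory the members had 5.66 hotspots and all genes 7.36. The densest territories were those of NR0B2 with 28.2 per 100 kb (3 hotspots in 10.6 kb), RARA with 22.6, RARG with 19.0 and ESRRA with 17.8. RXRA had 12.7 and ESRRB 11 in territories of 260 and 346 kb. The sparsest, beside RXRB at 0, were RORB with 1.57, ESRRG with 1.61, PGR with 1.92, NR5A2 with 2.31 and RARB with 2.66. HNF4A, with 13.0, lies on chromosome 20, which had 139 hotspots per Mb where the other chromosomes together had 60.1. Whether that moves its value was not tested, and without HNF4A the members had 5.56.

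**Figure D3:**
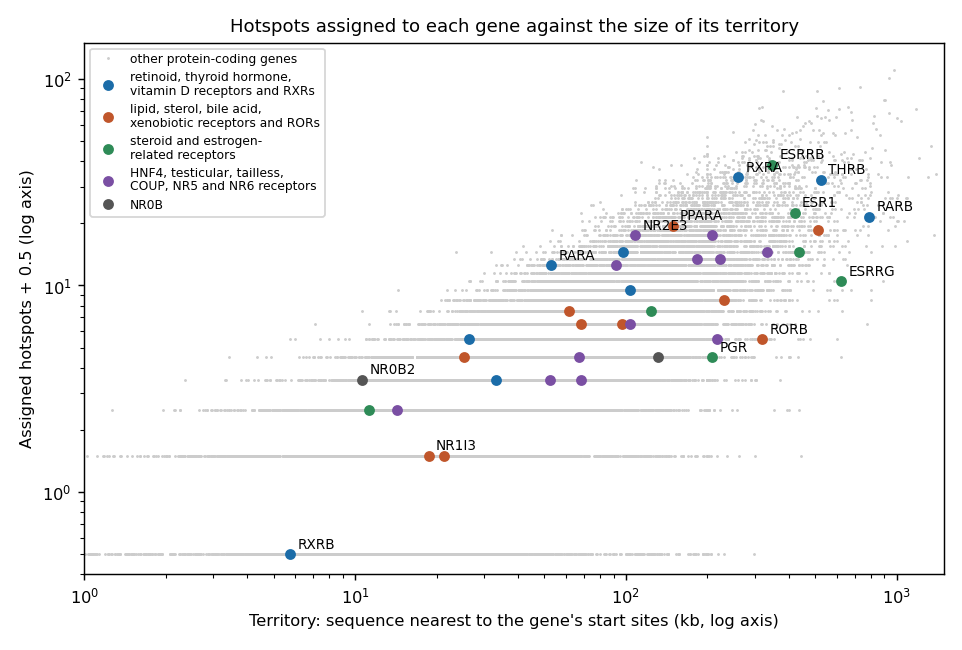
Assigned hotspots plus 0.5 against territory (kb) for the 40 nuclear receptor genes in colours by role and all other protein-coding genes in grey, both axes logarithmic. ESRRB and RXRA stand highest among the members with 38 and 33 hotspots, and RORB and PGR have 5 and 4 in territories of 318 and 208 kb.

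Of the 417 hotspots, 346 (83.0%, 79.1% to 86.3%) lay more than 1000 bp from every protein-coding TSS, and the share over all assigned hotspots was 82.3%. By midpoint and protein-coding genes alone, 59.7% (54.9% to 64.3%) lay in introns, beside 49.2% of all assigned hotspots. Between genes lay 31.7%, beside 39.6%, and here and below that term includes sequence within noncoding genes. The intervals take hotspots as independent, though many shared a gene, and intron length was not taken into account. The median score of the 417 was 5.99 and that of all assigned hotspots 5.80.

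Some of the strongest hotspots away from promoters were in sequence that occurs many times in the genome. Each hotspot was cut into 32-base words and each word was looked up in hg38 on both strands. A word is said to occur elsewhere where hg38 held it more than once, so a copy inside the same hotspot counted too. The alignment commands in the study's supplement state no filter on mapping quality. A read pair that matched several copies equally well could thus have been placed at any of them. Reads were paired and each was longer than a word, so a repeated word need not make a pair ambiguous. How many pairs were ambiguous was not measured. The hotspot of highest score assigned to a member was one of THRB with 97.5 (between genes, 70.6 kb from the nearest THRB start site), above 99.9% of the list, and 90.5% of its words occurred elsewhere, with a median of 807 copies a word. The distal hotspots of NR2E3 with 38.7, NR2C2 with 37.7 and PPARD with 36.1 had 100%, 98.2% and 95% of their words elsewhere, in that order. The same held for the highest distal hotspots of RORB (23.8, 100%), NR2F1 (23.2, 100%) and HNF4G (26.4, 100%). Which copy the reads of these hotspots came from was not tested.

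In all, the central 32 bases of 81 of the 417 hotspots (19.4%, 15.9% to 23.5%) occurred elsewhere in hg38, as did those of 26.9% of all assigned hotspots. At promoters this was 1 of 71 (1.41%), beside 8.57% of all assigned hotspots at promoters. Among the 16 member hotspots away from promoters with a score above 20 it was 9, and among all 4134 such hotspots it was 57.6%. With these hotspots left out, a choice made after seeing the data, the median member had 5.5 assigned hotspots and the median gene 3.

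A hotspot is called unique here where its central 32 bases occurred nowhere else in hg38, though other parts of it could be repeated. The unique distal hotspots of highest score belonged to a few members. ESR1 had a pair of them, both in its own introns, with 32.3 (chr6:151900753-151901681, 20.6 kb from the nearest ESR1 start site) and 30.8 (chr6:151763242-151764668, 40.5 kb upstream of the nearest). Both stood above the ESR1 promoter hotspot, at 7.12. Of the words of the hotspot with 32.3, 10.6% occurred elsewhere, and of the one with 30.8, 0.143%. A further ESR1 hotspot close to the first, with a score of 11.4, had 93.1% of its words elsewhere. NR2F2 had one with 29.3, 52.0 kb upstream between genes. HNF4A had one with 27.2, 6.16 kb downstream and overlapping an exon. NR2F1 had 21.0 at 1.80 kb, PPARA 20.9 at 79.6 kb and RXRG 20.7 at 36.9 kb, where the RXRG promoter had 5.99. THRB had 19.1 at 72.8 kb in an intron, PPARG 19.3 at 20.5 kb and RARA 18.5 at 3.47 kb.

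Other members had unique distal hotspots of low score only, or none. The highest was 4.72 at ESR2, 4.86 at both PGR and NR1H4, 5.08 at NR2F6, 5.31 at NR1H2, 5.61 at NR1I2, 5.89 at THRA and 5.99 at RORB. NR1H3, NR1I3 and RXRB had none. ESRRB had 33 unique distal hotspots, the most of any member, with none above 11.5, and RXRA had 26, with none above 17.3. Those highest values stood above 83.6% of the whole list at ESRRB and above 91.0% at RXRA. With hotspots at promoters included, 9 of 38 assigned hotspots of ESRRB and 17 of 33 of RXRA scored above the list median.

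**Figure D4:**
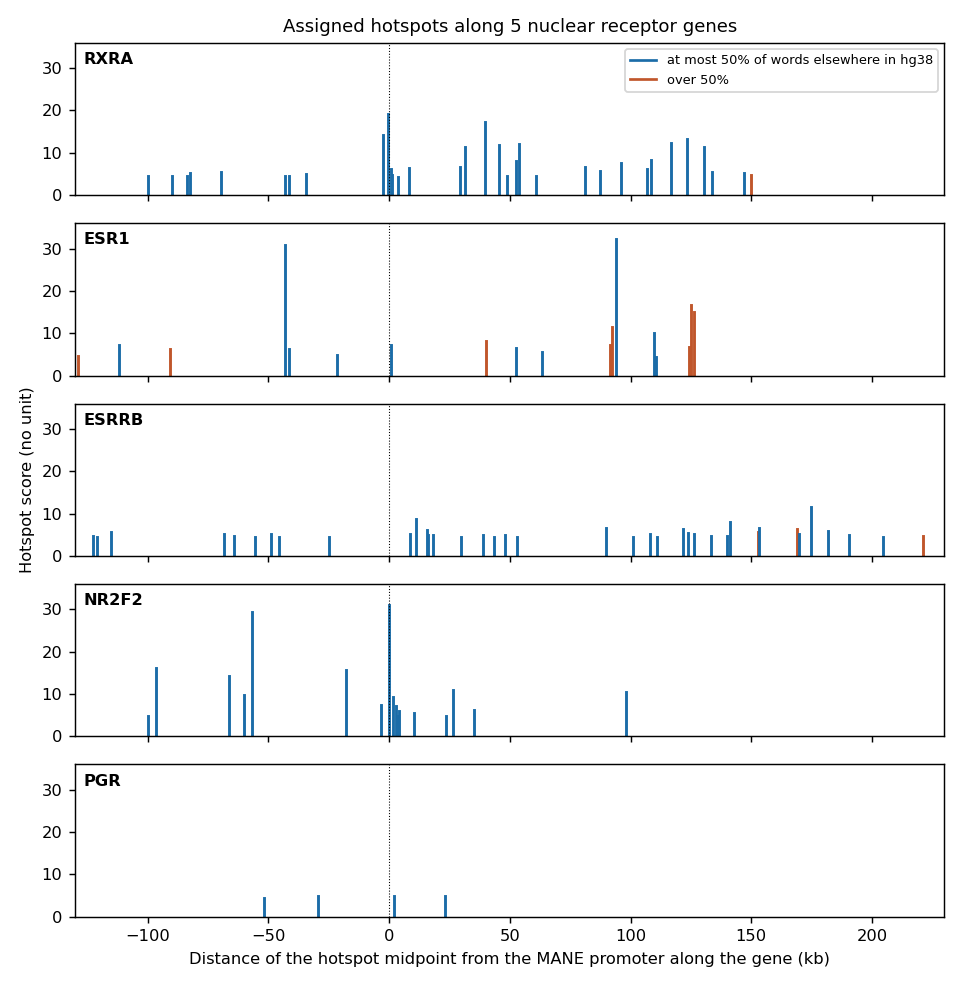
Assigned hotspots of RXRA, ESR1, ESRRB, NR2F2 and PGR by distance from the MANE promoter along the gene (kb), with line height as Hotspot score and colour showing whether over 50% of the 32-base words occurred elsewhere in hg38. The window leaves out 4 of the 22 ESR1 hotspots and none of the others, and the tallest ESR1 lines, 32.3 and 30.8, stand far from its promoter line of 7.12.

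The hexamers that nuclear receptors bind stood in a like share of the members' hotspots and of all assigned hotspots. AGGTCA or GGGTCA stood in 172 of the 417 hotspots (41.2%, 36.6% to 46.0%) and in 40.4% of all assigned hotspots. A paired site, meaning a direct repeat of these hexamers with 0 to 5 bases between (DR0 to DR5) or an inverted repeat with 3 between, was in 7 of the 417 (1.68%, 0.815% to 3.42%), where 0.898% of the 139747 assigned hotspots held one. The 7 were at 6 genes, namely ESRRA, VDR, THRB, RORB, NR6A1 and HNF4G, the last with 2. They comprised 6 of type DR1, the spacing read by HNF4, PPAR with RXR and COUP receptors, and 1 of type DR2. The inverted repeat of AGAACA with 3 bases between, the form bound by the glucocorticoid, mineralocorticoid and progesterone receptors, was in 0 of the 417 (upper limit of the interval 0.913%) and in 10 of all assigned hotspots.

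Of the 7 paired sites, 5 were in repeated sequence. The central 32 bases of the sites at THRB, RORB and one site of HNF4G occurred 1223, 1218 and 1223 times in hg38, and those at NR6A1 and the other HNF4G site 36 and 4 times. The stretches around the THRB and RORB sites were identical at 93 of 93 bases, so these DR1 sites were copies of the same sequence, counted at each gene. Only the sites of ESRRA and VDR occurred once, which left 2 of 417 hotspots (0.480%) with a paired site in unique sequence, beside 0.399% of all assigned hotspots. Over the whole list 55.6% of the 1255 paired-site hotspots were in repeated sequence.

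The unique sites of ESRRA and VDR were both in promoter hotspots, and are shown with 40 bases on either side and the repeat of hexamers in capitals. The ESRRA site GGGTCAAAGGTCA lay 627 bases after the MANE start site, in the promoter hotspot with 30.9, and the stretch shown is chr11:64306111-64306203 on the forward strand. The VDR site AGGTCAAGGGTCA lay in the hotspot with 6.13 at the upstream promoter, and the stretch shown is chr12:47944087-47944179 on the forward strand, opposite to the gene.
ESRRA: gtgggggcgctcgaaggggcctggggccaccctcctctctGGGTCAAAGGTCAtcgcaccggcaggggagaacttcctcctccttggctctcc
VDR: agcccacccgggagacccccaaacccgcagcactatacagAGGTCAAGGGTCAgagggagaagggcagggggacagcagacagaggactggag

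The ESRRA promoter hotspot held 8 hexamers, more than its paired site alone. On the reverse strand, 3 of them stood 23 bases apart at positions -692, -669 and -646 from the MANE start site, in copies of one unit. The first of these as printed had the form TCAAGGTCA. The other 2 read TGAAGGTCA, a form that was not searched for. TCAAGGTCA is an extended form bound by estrogen-related receptors, the family ESRRA itself belongs to. Searched in exactly those letters, TCAAGGTCA was found in 2 of the 417 hotspots, this one and one of PPARD. Of all assigned hotspots 0.449% held it. The ESRRA stretch, chr11:64304812-64304903, is printed on the reverse strand with the hexamers in capitals, and the PPARD stretch, chr6:35392926-35393014, in an intron 49.7 kb from the start site, on the forward strand with the extended site in capitals.
ESRRA: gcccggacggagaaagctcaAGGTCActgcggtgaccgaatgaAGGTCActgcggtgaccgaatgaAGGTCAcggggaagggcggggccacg
PPARD: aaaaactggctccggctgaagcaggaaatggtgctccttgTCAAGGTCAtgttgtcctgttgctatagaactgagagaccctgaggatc

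**Figure D5:**
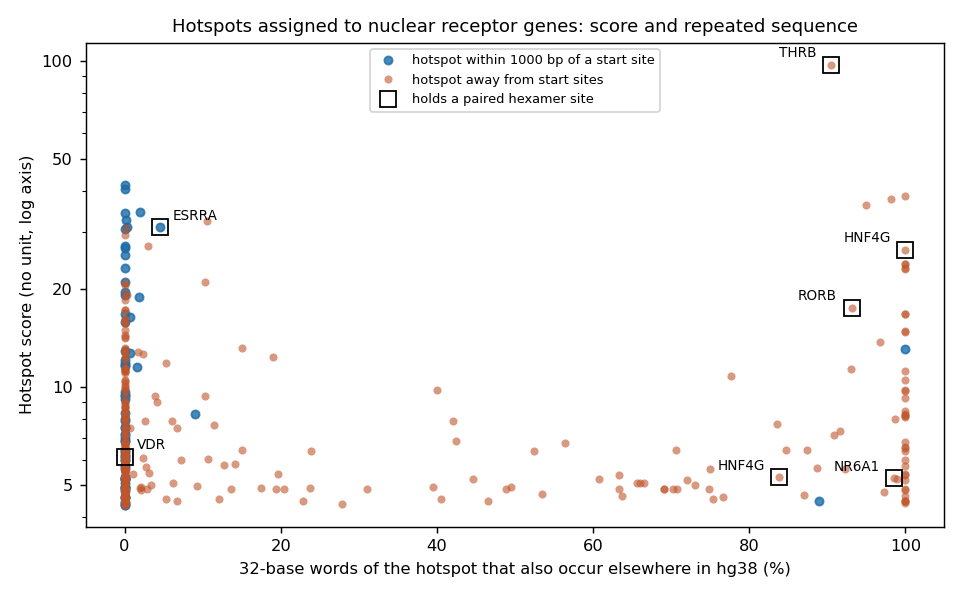
Hotspot score (log axis) of each hotspot assigned to a nuclear receptor gene against the share of its 32-base words that also occur elsewhere in hg38 (%), with promoter hotspots in blue, others in orange and those holding a paired hexamer site boxed. Most promoter hotspots lie near 0%, THRB stands at 97.5 and 90.5%, and of the boxed points those of ESRRA and VDR lie at 4.55% and 0%. A further copy inside the same hotspot counts as elsewhere.

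Sites of other factors were searched in the 346 distal hotspots of members on both strands. The AP-1 site TGANTCA, which the factors downstream of EGF bind, was in 65 of them (18.8%, 15.0% to 23.2%) and in 16.9% of all 115052 distal hotspots. RXRA, RORA and THRB had 6 such hotspots each, HNF4A had 5 and ESR1, ESRRG, NR2E3, NR2F2 and RARB had 4 each. The TEAD site GGAATG was in 16.5% (all 17.4%), the RUNX site TGTGGTT in 6.94% (all 5.86%) and the forkhead site TGTTTAC in 3.76% (all 4.29%). For each of these motifs the interval of the members' share covered the share of all distal hotspots.

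All 15 genes of a list of coregulators, among them NCOA and NCOR genes, had a promoter hotspot, with a median of 22.8 and no score below 10.6. Of 25 textbook target genes of the receptors 18 had one, with a median of 19.1. Over all protein-coding genes 77.2% had a promoter hotspot. The median of the coregulators lay above that of all genes with one, and the median of the targets below it. Among other families of transcription factor genes, 37 of 52 FOX genes (71.2%), 13 of 19 SOX genes (68.4%) and 15 of 18 KLF genes (83.3%) had a promoter hotspot, with medians of 14.6, 6.57 and 28.4.

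As a check of the cell type, promoter hotspots were found at 10 of 12 basal mammary genes (median score 25.6), 5 of 8 luminal ones (22.4), 2 of 5 immune, 2 of 4 hepatocyte and 3 of 4 neuronal marker genes, the last with no score above 9.75. Some markers of each of these other cell types thus had a promoter hotspot. Over all protein-coding genes 77.2% had one, and with lists this short the shares do not tell the cell types apart.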

How the data were processed

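The deposited data were 1 list of ATAC-seq hotspots from MCF10A cells with a score per hotspot. The authors aligned reads to hg38 with Bowtie2 (version not given in the sources used here for these alignments), merged 5 replicates, removed duplicates and called hotspots with Hotspot at a false discovery rate of 0.01. The deposited score is the peak caller's value and was used as given. The alignment commands listed state no mapping-quality filter. No depth was given, so intervals (95% Wilson) cover counting error only, and with 1 pooled list no test was made.

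Hotspots were joined to GENCODE release 44 start sites of every transcript of protein-coding genes, by a window of 1000 bp or the nearest start site within 100 kb of the midpoint. Motifs were matched on both strands. Each 32-base word of a member's hotspots, and the central 32 bases of every hotspot and paired site, were counted in hg38. The joins were tested on simulated data, where 5000 of 5000 hotspots, 350 of 350 paired sites and 500 of 500 territories came out right. Python 3.11.15, numpy 2.4.6, scipy 1.17.1, pandas 2.3.3 and matplotlib 3.10.9 were used.

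All 40 members were accounted for in 5 role groups. Promoter scores and counts were given for the member of each group with the highest promoter score and the one with most assigned hotspots, members without a promoter hotspot, members with open and closed promoters, and members sharing a promoter hotspot with another gene. Distal hotspots named were the highest of a member and those with a paired site, and further ones were chosen after their values were seen. Members and lists were chosen with earlier results of these data known. Alternatives were other windows, limits, start sites and score minimums. A few genes and stretches of sequence are not reported here.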

Additional observations from a re-analysis of the deposited data

How the results depend on the processing

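Leaving out each replicate was not possible, because the replicates were pooled before hotspots were called. No paired analysis was possible because there was 1 pooled list. The number of members with a promoter hotspot ranged from 28 to 36 and their median score from 14.4 to 17.0 over the alternatives run. With coding start sites alone NR1I2, RARB and RXRG lost their promoter hotspot (33 left, all genes 73.6%), and with hotspots above the median score 8 members did (28 left, all genes 69.3%). With hotspots above the median score, the median of assigned hotspots per member was 3, the members had 2.93 per 100 kb of territory and 77.3% of their hotspots lay away from promoters. That setting keeps fewer hotspots by construction. With a distance of 2000 bp, 77.5% lay away from promoters. The share of hotspots with a paired site was 0.240% in the central 120 bp (all assigned hotspots 0.241%), and 0.480% for sites in unique sequence (all 0.399%), an alternative chosen after seeing the data. Scores near the lowest of the list, 4.36, limit what can be said of RARB, NR0B2, RORB and PGR.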
